A study of Homo sapiens with 12 samples.

Results

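TAGLN (transgelin) and 9 other genes of the contractile actin cytoskeleton were followed in bladder carcinoma cells with and without siRNA against KMT9α. The genes were the transgelins TAGLN and TAGLN2, the calponins CNN1, CNN2 and CNN3, the tropomyosins TPM1 and TPM2, the smooth muscle actins ACTA2 and ACTG2 and the myosin light chain MYL9, 10 of the 23064 gene symbols of the count tables. They were picked by name as a family after the knockdown values had been seen, because TAGLN was among the strongest falls in the comparison of siKMT9α with siCtrl. The knockdown values of the members are therefore given as a description, without a test. For each symbol the transcript row with the most counts was used.

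The libraries came from CAL-29 and 5637 cells, both established human bladder carcinoma lines labelled wild type, harvested on day 3 after transfection with the control siRNA siCtrl or with siRNA against KMT9α, written siKMT9α here, with 3 libraries for each siRNA in each line and 12 in all. KMT9α, encoded by N6AMT1, is the catalytic subunit of the histone methyltransferase KMT9. The transfection reagent and the siRNA concentration differed between the lines, so that they cannot be told apart from the cell line. The labels do not say whether the libraries of a group came from separate cultures, and p-values measure the spread between these libraries, which may be technical. The rows used held 24479348.5 to 35151256.5 counts in a library, and libraries of 1 group varied beyond sampling noise. CAL-29 siCtrl replicate 1 stood furthest apart. Chi-square per degree of freedom, a measure of this variation, was 8.17 and 12.2 between it and the other CAL-29 siCtrl libraries. All other pairs within a group lay between 2.24 and 3.96. Levels are given in CPM, the counts scaled to a common library total, after TMM scaling, which sets the libraries to a common level over most genes. A differentially expressed gene (DEG) is one with an unadjusted p below 1e-06 in edgeR's quasi-likelihood test, the threshold used throughout. N6AMT1 itself, the targeted gene, was at 10.4 ± 0.891 CPM (SD, n = 3) in CAL-29 siCtrl libraries and at 2.58 ± 0.515 CPM with siKMT9α, and at 13.3 ± 0.0878 and 2.84 ± 0.803 CPM in 5637 cells, so that 24.7% and 21.4% of the control level were left.

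Smooth muscle contracts when myosin, switched on by phosphorylation of its regulatory light chain, pulls on actin filaments that are coated with tropomyosin and bound by calponins and transgelins. Other cells, among them carcinoma cells that migrate, use the same proteins in stress fibres. Many of these genes are known targets of serum response factor (SRF), which binds a short DNA element, the CArG box, together with its cofactors MRTFA, MRTFB or, in muscle, MYOCD. The MRTF proteins are held in the cytoplasm by free actin monomers and enter the nucleus when actin assembles into filaments.

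To show which members carry the element next to their start, the promoter windows with a CArG box are given here. The RefSeq promoters of GRCh38.p14, each of 300 bases with 250 of them before the start, covered 8 of the 10 members with 13 promoters. TAGLN and MYL9 had no entry. A CArG box, which reads alike on both strands, was found at CNN2, starting 89 bases before the start, and at ACTG2, starting 110 and 73 bases before it. Over all 35116 promoters 1.29% held one. With 1 base different, further matches lay at ACTA2, starting 121 and 71 bases before its second listed start, and at ACTG2, starting 239 bases before it, and 17.9% of all promoters held such a near match. Neither kind was found in these windows of TAGLN2, CNN1, CNN3, TPM1 and TPM2, which says only that the letters are not there. The matches are printed in capitals.
CNN2, chr19:1026499-1026548, plus strand: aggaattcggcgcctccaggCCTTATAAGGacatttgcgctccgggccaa
ACTA2, chr10:88952815-88952914, minus strand: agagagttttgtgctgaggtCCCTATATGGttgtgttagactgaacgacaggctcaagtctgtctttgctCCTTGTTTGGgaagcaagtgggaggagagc
ACTG2, chr2:73892758-73892964, plus strand: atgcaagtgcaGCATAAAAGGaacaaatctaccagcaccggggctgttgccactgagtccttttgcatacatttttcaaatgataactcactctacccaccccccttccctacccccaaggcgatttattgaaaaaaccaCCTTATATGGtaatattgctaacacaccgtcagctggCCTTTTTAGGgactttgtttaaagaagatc

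TAGLN encodes a calponin-type protein that binds along actin filaments and is an early marker of smooth muscle. It lies on chromosome 11 (chr11:117070086-117078180, plus strand), where this and the other gene positions are of GRCh37. In CAL-29 cells it stood at 1066, 1248 and 1317 CPM in the siCtrl libraries and at 81.6, 99.7 and 104 CPM with siKMT9α. The groups lay far apart, with a mean 12.7-fold lower after knockdown and a log2 fold change of −3.67 ± 0.09 (SE). In 5637 cells TAGLN stood at 50.9, 55.4 and 50.7 CPM with siCtrl and at 0.674, 1.03 and 1.58 CPM with siKMT9α. These last values rest on 18, 28 and 48 counts. Here the mean was 47.8-fold lower, and the log2 fold change was −5.55 ± 0.11. Counted from the lowest log2 fold change, TAGLN ranked 43 of 14673 genes in CAL-29 cells and 4 of 14335 genes in 5637 cells, which is the value that drew attention to the family. On a scale common to all 12 libraries its groups followed in the order CAL-29 siCtrl (1178 CPM), CAL-29 siKMT9α (93.8 CPM), 5637 siCtrl (53.4 CPM) and 5637 siKMT9α (1.12 CPM), and no library of one group overlapped the next. CAL-29 cells thus kept more TAGLN RNA after knockdown than 5637 cells had before it. In bulk RNA a lower number of cells with the transcript and less transcript per cell cannot be told apart. The longest annotated TAGLN transcript shares 59.0% of its exon bases with PCSK7 on the other strand, and the shortest 19.6%. Without a stated strand setting, reads from the shared bases cannot be assigned.

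TAGLN2, the transgelin found in most cell types (chr1:159887897-159895297, minus strand), was at 1275, 1463 and 1510 CPM in CAL-29 siCtrl libraries and at 768, 753 and 738 CPM with siKMT9α. It was at 843, 883 and 886 CPM in 5637 siCtrl libraries and at 614, 646 and 647 CPM with siKMT9α. The groups did not overlap in either line. The log2 fold changes were −0.91 ± 0.06 in CAL-29 cells and −0.45 ± 0.03 in 5637 cells, small beside those of TAGLN.

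**Figure D1:**
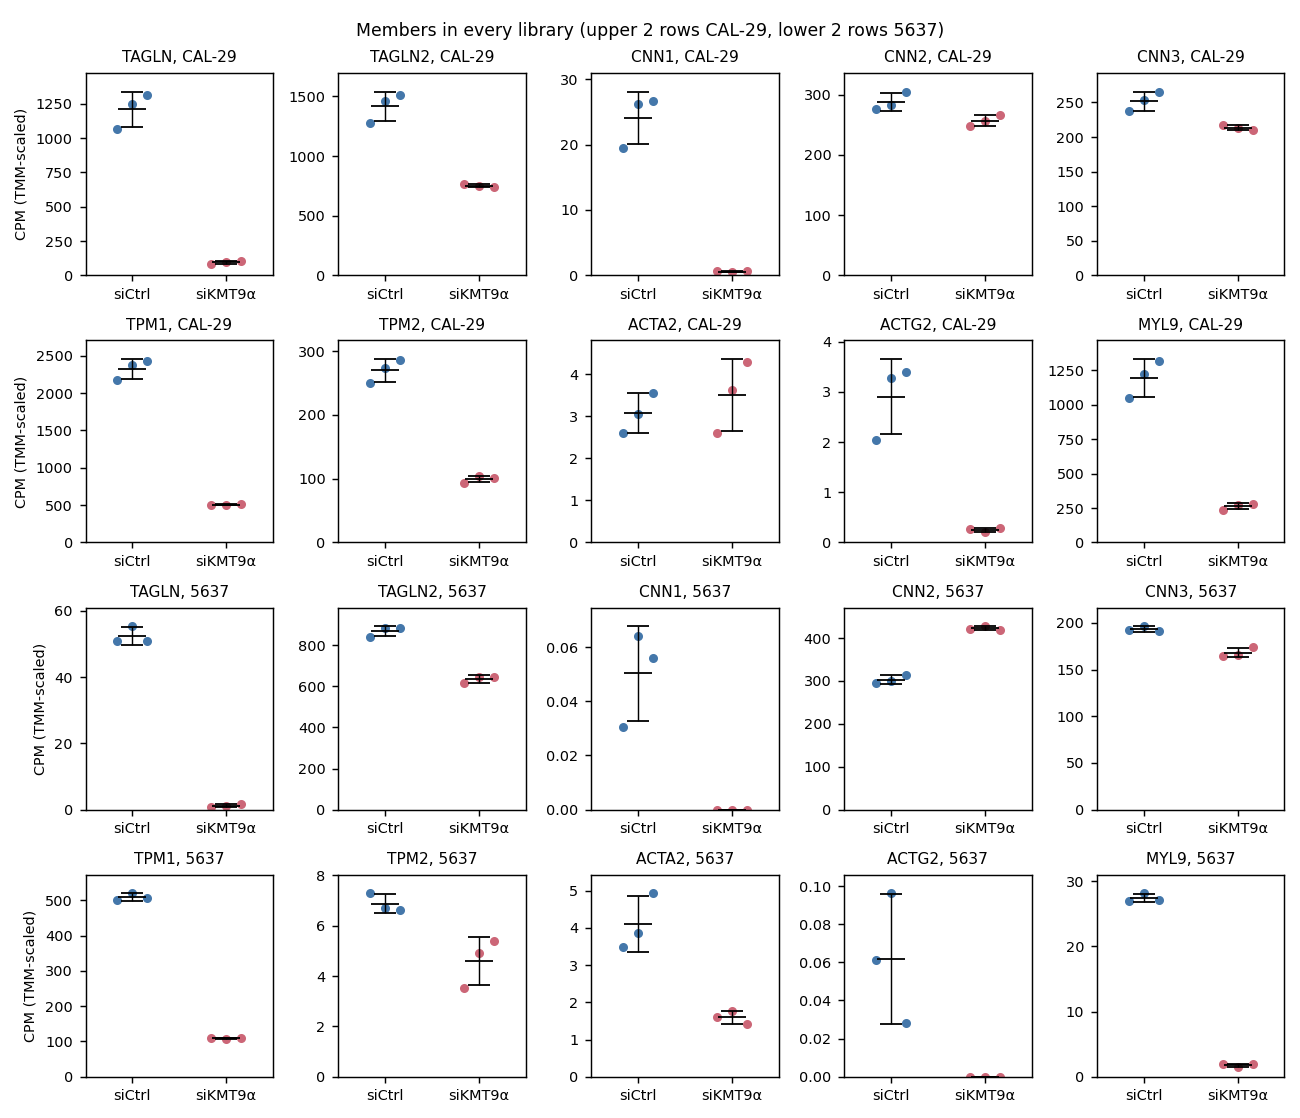
Level of each member in every library (y axis, TMM-scaled CPM from 0, scaled to each gene and line) for siCtrl (blue points) and siKMT9α (red points), 3 libraries each, with the mean and SD in black. The upper 2 rows of panels hold CAL-29 cells and the lower 2 rows 5637 cells. In CAL-29 cells the groups overlap only for ACTA2, and CNN2 is higher with siKMT9α only in 5637 cells.

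The calponins bind actin and calmodulin and, in muscle, restrain the myosin ATPase. CNN1, the calponin of differentiated smooth muscle (chr19:11649582-11661138, plus strand), was at 19.4, 26.2 and 26.6 CPM in CAL-29 siCtrl libraries and at 0.617, 0.457 and 0.636 CPM with siKMT9α. Its log2 fold change of −5.41 ± 0.18 ranked 11 of 14673. In 5637 cells CNN1 had 1, 2 and 2 counts with siCtrl and 0 counts in each siKMT9α library. These are at or under the limit of 3 counts that a count of 0 allows, so that no fold change is given.

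CNN2 and CNN3 are the calponins of cells outside smooth muscle. CNN2 (chr19:1026585-1039067, plus strand) was at 276, 283 and 305 CPM in CAL-29 siCtrl libraries and at 247, 257 and 266 CPM with siKMT9α, groups that did not overlap but lay close (log2 fold change −0.17 ± 0.05). In 5637 cells it was at 295, 300 and 314 CPM with siCtrl and at 422, 429 and 420 CPM with siKMT9α. The log2 fold change there was 0.48 ± 0.03, the only member with a DEG call upward in either line. A gene of the opposite strand shares 15.7% of the exon bases of CNN2. CNN3 (chr1:95362505-95392779, minus strand) fell short of the threshold in both lines. Its values were 238, 253 and 265 CPM against 218, 213 and 210 CPM in CAL-29 cells, and 192, 197 and 191 CPM against 165, 166 and 174 CPM in 5637 cells, with log2 fold changes of −0.24 ± 0.05 and −0.20 ± 0.03. In 5637 cells CNN3 lay so close to the threshold that total-count scaling, upper quartile scaling, no filter, DESeq2 and the replicate block each carried it past.

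Tropomyosins wind along the actin filament and set the access of myosin and of severing proteins. TPM1 (chr15:63334819-63364114, plus strand) had 2169, 2377 and 2424 CPM in CAL-29 siCtrl libraries and 505, 505 and 510 CPM with siKMT9α. In 5637 cells it had 500, 520 and 506 CPM with siCtrl and 109, 107 and 110 CPM with siKMT9α. The lines began 4.36-fold apart on the common scale and lost nearly the same share: 21.8% of the control level was left in CAL-29 cells and 21.4% in 5637 cells. The log2 fold changes were −2.20 ± 0.05 and −2.22 ± 0.03. TPM1 is spliced into many forms, and all 7 of its transcript rows moved alike on the log2 scale, from −2.21 to −2.15 in CAL-29 cells and from −2.24 to −1.97 in 5637 cells. Rows of 1 gene share reads and are not independent.

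TPM2 (chr9:35681989-35690053, minus strand) differed more between the lines. It was at 250, 273 and 286 CPM in CAL-29 siCtrl libraries and at 93.9, 104 and 101 CPM with siKMT9α (log2 fold change −1.44 ± 0.06). In 5637 cells it was scarce, with 7.30, 6.71 and 6.62 CPM in siCtrl libraries and 3.52, 4.91 and 5.38 CPM with siKMT9α. The groups did not overlap there, but the log2 fold change of −0.57 ± 0.13 fell short of the threshold, except with no filter on low counts.

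MYL9 encodes the regulatory light chain of smooth muscle and nonmuscle myosin, whose phosphorylation starts contraction (chr20:35169900-35179850, plus strand). It was at 1050, 1221 and 1322 CPM in CAL-29 siCtrl libraries and at 237, 273 and 282 CPM with siKMT9α. In 5637 cells it was at 26.9, 28.2 and 27.2 CPM with siCtrl and at 1.91, 1.48 and 1.90 CPM with siKMT9α. The fall was 4.54-fold in CAL-29 cells and 15.5-fold in 5637 cells (log2 fold changes −2.18 ± 0.07 and −3.95 ± 0.10). MYL9 and TAGLN thus had a like outline, with high control levels in CAL-29 cells, far lower ones in 5637 cells, and the deeper relative loss in 5637 cells.

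The smooth muscle actins had few counts in both lines. ACTG2, the actin of visceral smooth muscle (chr2:74119441-74146992, plus strand), was at 2.04, 3.28 and 3.40 CPM in CAL-29 siCtrl libraries and at 0.260, 0.213 and 0.278 CPM with siKMT9α, from 8, 7 and 7 counts (log2 fold change −3.53 ± 0.32). In 5637 cells it had 2, 3 and 1 counts with siCtrl and 0 in each siKMT9α library, and no fold change is given. ACTA2, the actin of vascular smooth muscle and of myofibroblasts (chr10:90694831-90751096, minus strand), had unlike values in the lines. In CAL-29 cells its groups overlapped, at 2.61, 3.05 and 3.55 CPM with siCtrl and 2.60, 3.63 and 4.30 CPM with siKMT9α (log2 fold change 0.18 ± 0.195). In 5637 cells it was at 3.50, 3.85 and 4.94 CPM with siCtrl and at 1.61, 1.77 and 1.41 CPM with siKMT9α (−1.37 ± 0.17). The 6 actin genes have similar coding sequences, and how any reads shared between them were counted is not given in the sources used here. At these levels, beside the far higher ones of ACTB and ACTG1, the values of ACTA2 and ACTG2 are uncertain. The ACTA2 transcript also overlaps the antisense gene ACTA2-AS1 over 38.3% of its exon bases.

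At this threshold 7 of the 10 members were downregulated DEGs in CAL-29 cells (TAGLN, TAGLN2, CNN1, TPM1, TPM2, ACTG2 and MYL9), 0 were upregulated and 3 passed neither way. ACTG2 passed the filter there only through the siCtrl libraries, where it is high, so that its direction was fixed. With at least 10 counts required in every library, 6 members were called in CAL-29 cells. Of all 14673 genes tested there, 15.0% were downregulated and 15.0% upregulated DEGs. In 5637 cells 8 members had enough counts to be tested, 5 were downregulated (TAGLN, TAGLN2, TPM1, ACTA2 and MYL9) and 1 was upregulated (CNN2), where 17.6% of 14335 genes were downregulated and 18.0% upregulated. The libraries of the 2 siRNAs did not overlap for 9 of 10 members in CAL-29 cells and 8 of 8 in 5637 cells, against 72.3% and 72.4% of all genes. Since the members were chosen on this comparison, nothing is read from these counts. Tested members had a median log2 fold change of −1.81 (CAL-29) and −0.97 (5637), and all genes of −0.02 and −0.01. Summed over the members, the level went from 6801 ± 574 to 2162 ± 36.3 CPM in CAL-29 cells and from 2006 ± 38.7 to 1375 ± 24.2 CPM in 5637 cells (SD, n = 3).

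**Figure D2:**
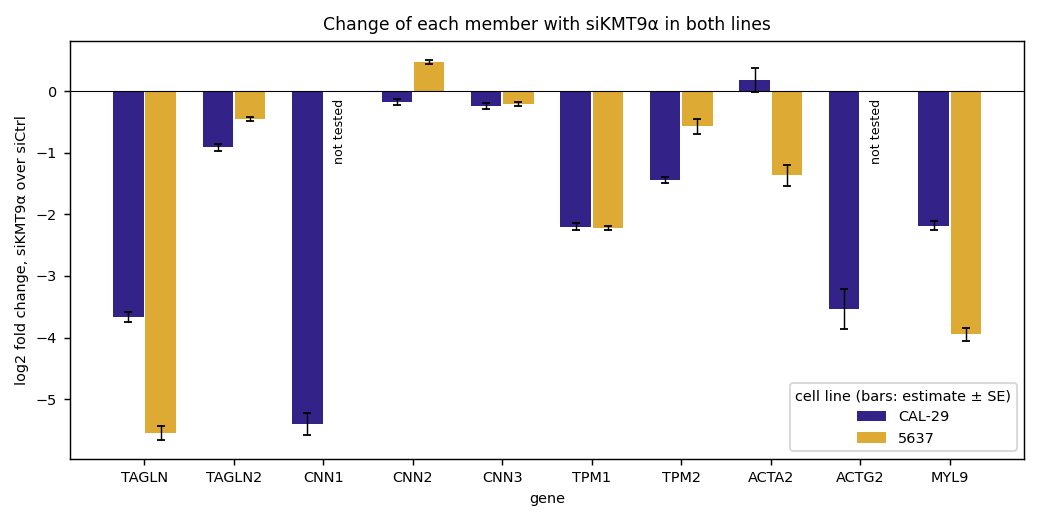
Log2 fold change of each member (y axis, siKMT9α over siCtrl) in CAL-29 (dark) and 5637 cells (yellow), bars with the SE. TPM1 is nearly equal in the lines, TAGLN and MYL9 reach lower in 5637 cells, CNN2 points in opposite directions, and CNN1 and ACTG2 had too few counts in 5637 cells.

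The responses of the lines, as the log2 fold change in CAL-29 cells less that in 5637 cells in a fit of all 12 libraries, set 8 members in 3 groups. CNN1 and ACTG2, with 0 counts in the 5637 siKMT9α libraries, are given no difference. A positive difference, here a deeper relative loss in 5637 cells, was found for TAGLN (1.89 ± 0.22) and MYL9 (1.78 ± 0.16). The difference was also positive for ACTA2 (1.56 ± 0.27), which had few counts and was lower only in 5637 cells. It was near 0 for TPM1 (0.04 ± 0.06) and CNN3 (−0.02 ± 0.06). It was negative for TAGLN2 (−0.44 ± 0.07), CNN2 (−0.63 ± 0.06) and TPM2 (−0.86 ± 0.13). No test is given, as the choice of members used both responses.

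Whether the lines differed before knockdown is a question that the choice of members did not use. Of the 8 members with enough counts in each line, 6 differed between the siCtrl libraries of the lines past the threshold, each with the higher level in CAL-29 cells, and 6 were also called with at least 10 counts required in every library. CNN1 and ACTG2 passed the filter only through CAL-29 cells, where they are high, so that their direction was fixed and their calls are not counted. Of all 15395 genes in this comparison, 29.0% were higher in CAL-29 cells and 30.7% lower. The ratios differed widely among the members. TAGLN was 22.1-fold higher in CAL-29 cells (log2 ratio 4.46 ± 0.08, adjusted p = 1.09e-27 from the edgeR test, adjusted after Benjamini and Hochberg), at 1178 ± 128 against 53.4 ± 2.65 CPM. MYL9 was 41.7-fold higher (5.38 ± 0.08, adjusted p = 3.68e-30 in the same edgeR test), at 1166 ± 136 against 28.0 ± 0.629 CPM. TPM2 was 37.4-fold higher (5.23 ± 0.08, adjusted p = 4.72e-30, edgeR), at 263 ± 18.2 against 7.02 ± 0.39 CPM. TPM1 was 4.36-fold higher (2.12 ± 0.04, adjusted p = 2.06e-26, edgeR).

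CNN1 and ACTG2 were almost confined to CAL-29 cells at this depth. CNN1 had 1850 counts over the 3 CAL-29 siCtrl libraries and 5 over those of 5637, a scaled ratio of 458 with an exact 95% interval from 196 to 1413. ACTG2 had 224 against 6 counts, a ratio of 46.2 with an interval from 20.9 to 127. Both intervals cover counting error only. The widely expressed forms differed little. TAGLN2 was 1.55-fold higher in CAL-29 cells (0.63 ± 0.05, adjusted p = 9.80e-13, edgeR) and CNN3 1.24-fold higher (0.31 ± 0.04, adjusted p = 7.06e-08, edgeR). The call of CNN3 was lost in an edgeR fit of the siCtrl libraries alone, at a log2 ratio of 0.32, and without 5637 siCtrl replicate 1 or replicate 3, at 0.31 and 0.30. CNN2 and ACTA2 did not pass the threshold, with log2 ratios of −0.14 ± 0.04 and −0.48 ± 0.18.

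**Figure D3:**
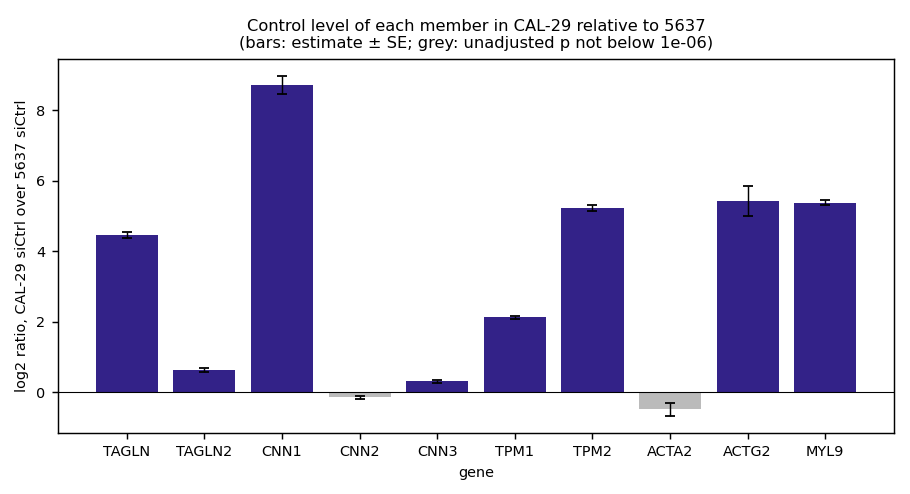
Log2 ratio of the level in CAL-29 siCtrl to that in 5637 siCtrl libraries for each member (y axis), bars with the SE, 3 libraries a line. The coloured bars passed the threshold and point toward CAL-29 cells, where those of CNN1 and ACTG2 rest on 5 and 6 counts in 5637 cells, and the grey bars of CNN2 and ACTA2 did not pass.

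Levels per kilobase used the lengths of those annotated transcripts that share the coding span of the gene's main transcript. Forms with another coding span were left out, among them a TPM1 transcript with a 3′ UTR of 3493 bases. The counts are those of the row with the most counts, which need not be the transcript that gave the length. For TPM1 the 7 rows held 21013 to 59366 counts on average in CAL-29 siCtrl libraries, so that its level per kilobase and its place are uncertain. The order given here holds for these counts and lengths only. In CAL-29 siCtrl libraries it ran from TPM1 (1858 to 2056 CPM per kilobase) through TAGLN2 (1002 to 1944), MYL9 (419 to 1139) and TAGLN (311 to 1124). TPM2 (221 to 222), CNN2 (128 to 138), CNN3 (124), CNN1 (15.6), ACTA2 (1.77 to 2.22) and ACTG2 (from 1.37) followed. With the spread of the libraries added, the ranges of TPM1, TAGLN2, MYL9 and TAGLN each overlap the next, as annotated lengths of TAGLN run from 1048 to 3786 bases, and so do those of CNN2 and CNN3 and of ACTA2 and ACTG2. In 5637 siCtrl libraries TAGLN2 led (646 to 1253), ahead of TPM1 (426 to 472), CNN2 (141 to 152) and CNN3 (99.1 to 99.9), while TAGLN (14.1 to 51.0), MYL9 (up to 27.3) and TPM2 (5.90 to 5.92) came after them, with TAGLN and MYL9 overlapping. TAGLN, MYL9 and TPM2 were thus ahead of CNN2 and CNN3 in CAL-29 cells and behind them in 5637 cells, while CNN1, ACTA2 and ACTG2 were behind them in both.

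The relatives of the members within their families were next. Of 11 paralogues outside the members, 9 were tested in each line, 6 fell in CAL-29 cells, 5 fell in 5637 cells and 0 rose in either. ACTA1, 1 of the 6, passed the filter only through siCtrl libraries, so that its direction was fixed. Of all genes tested, 15.0% fell and 15.0% rose in CAL-29 cells, and 17.6% fell and 18.0% rose in 5637 cells. The median log2 fold changes of the tested paralogues were −0.74 (CAL-29) and −0.47 (5637). TPM4, a tropomyosin of nonmuscle cells, fell from 1177 ± 86.6 to 610 ± 9.02 CPM in CAL-29 cells (log2 fold change −0.95 ± 0.05, adjusted p = 2.66e-12, edgeR) and from 746 ± 7.83 to 430 ± 1.75 CPM in 5637 cells (−0.79 ± 0.03, adjusted p = 9.06e-20, edgeR). TPM3 did not pass the threshold in either line, with log2 fold changes of −0.28 ± 0.05 and 0.06 ± 0.03, but in CAL-29 cells it passed with no filter (−0.27), with the replicate block (−0.28) and without siCtrl replicate 1 (−0.33). The cytoplasmic actins fell in both lines. ACTB went from 5830 ± 415 to 3309 ± 54.2 CPM in CAL-29 cells and from 4673 ± 130 to 3134 ± 44.3 CPM in 5637 cells, and ACTG1 had log2 fold changes of −0.74 ± 0.05 and −0.56 ± 0.03.

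SRF itself had small log2 fold changes. It was at 133 ± 2.40 CPM in CAL-29 siCtrl libraries and did not pass the threshold with siKMT9α (log2 fold change −0.21 ± 0.05), and it rose from 65.0 ± 0.843 to 78.0 CPM in 5637 cells (0.26 ± 0.04, adjusted p = 8.18e-07, edgeR). This call lay close to the threshold and was lost in 7 of 14 alternatives, among them total-count scaling (0.21), upper quartile scaling (0.22), the joint fit (0.27) and the fits without 5637 siCtrl replicate 1 or 3 or siKMT9α replicate 2 or 3 (0.25 to 0.28). The difference between the lines passed the threshold (−0.46, adjusted p = 1.71e-07, edgeR interaction term), except with total-count scaling (−0.34). MRTFA fell in CAL-29 cells (−0.82) and did not pass in 5637 cells (−0.29), but it passed there as a fall in 6 of 14 alternatives, among them DESeq2, the other scalings and the fit without 5637 siCtrl replicate 2 (−0.33). The difference of −0.51 passed the threshold, except with total-count scaling (−0.39). MRTFB fell in both (−0.66 and −0.96), with the call in CAL-29 cells lost without siKMT9α replicate 1 (−0.64) or 3 (−0.65). Over the 7 genes of SRF and its cofactors, 4 fell and 0 rose in CAL-29 cells. Of the 6 tested in 5637 cells 2 fell and 2 rose, SRF being 1 of these, and MYOCD had 0 counts in every 5637 library. Among all genes, 15.0% fell and 15.0% rose in CAL-29 cells, and 17.6% fell and 18.0% rose in 5637 cells. For the difference between the lines, 15.7% of all genes passed the threshold.

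A list of 19 further SRF targets of the cytoskeleton and of adhesion sites, which holds none of the members, was mostly lower with siKMT9α. The list was chosen with earlier results of these data known. In CAL-29 cells 17 of 19 fell and 1 rose (SYNPO2), where 15.0% of all genes fell and 15.0% rose past the threshold. The median of their log2 fold changes was −1.38. In 5637 cells 14 of 18 tested fell and 3 rose (FHL1, TGFB1I1 and ITGA5), with a median of −0.57, where 17.6% of all genes fell and 18.0% rose. The genes that rose were named after their values were seen. The difference between the lines passed the threshold for 14 of the 19, each with the lower log2 fold change in CAL-29 cells. FLNA, which crosslinks actin filaments, fell from 7296 ± 333 to 2432 ± 36.3 CPM in CAL-29 cells and from 1285 ± 42.3 to 833 ± 29.6 CPM in 5637 cells (log2 fold changes −1.59 ± 0.05 and −0.63 ± 0.03). ACTN1, the alpha-actinin of stress fibres, fell from 1484 ± 35.4 to 513 ± 16.9 CPM and from 532 ± 4.05 to 379 ± 10.2 CPM (−1.53 ± 0.05 and −0.49 ± 0.03). MYH9, the nonmuscle myosin heavy chain, had log2 fold changes of −1.13 ± 0.05 and −0.48 ± 0.03. In these 3 genes the response was larger in CAL-29 cells, as for TAGLN2 and TPM2 and unlike TAGLN and MYL9.

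**Figure D4:**
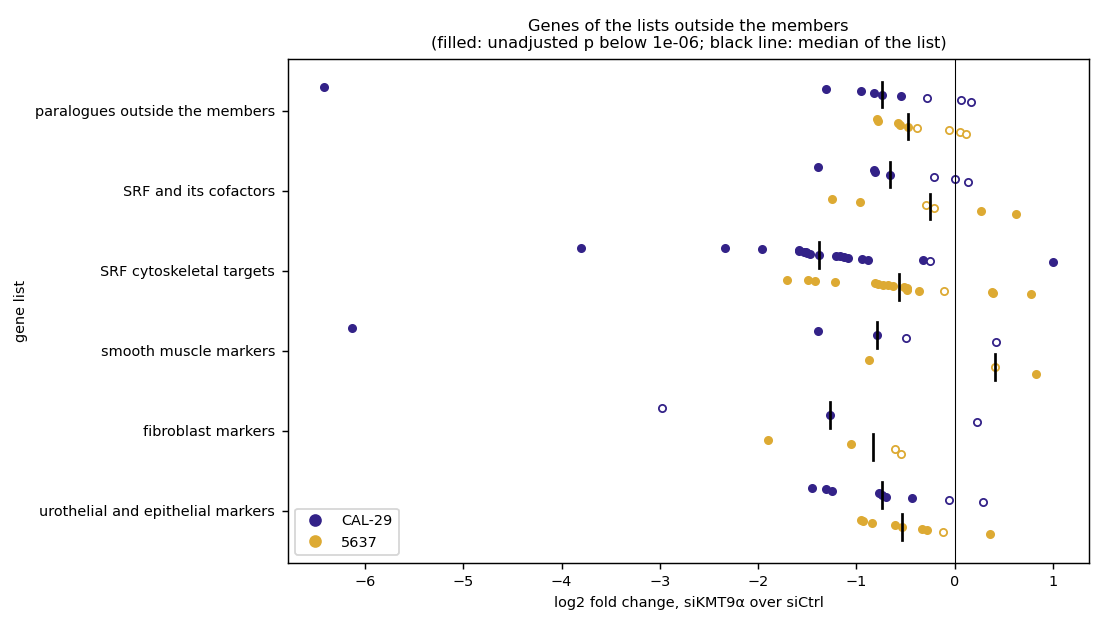
Log2 fold change (x axis, siKMT9α over siCtrl) of every tested gene of 6 lists outside the members, in CAL-29 (dark) and 5637 cells (yellow). Filled points passed the threshold and black lines mark the median of a list. The SRF cytoskeletal targets lie mostly left of 0 in both lines.

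Markers of other cell types give the setting of these values. Summed smooth muscle markers outside the members were at 109 to 117 CPM in CAL-29 siCtrl libraries and at 65.9 to 73.3 CPM with siKMT9α, while in 5637 cells they were at 50.2 to 51.7 and 70.7 to 72.5 CPM. DES, the muscle intermediate filament, was at 0 in all CAL-29 libraries, and MYH11, the smooth muscle myosin, was at 2.91 ± 0.144 CPM in CAL-29 siCtrl and 3.63 ± 0.312 CPM in 5637 siCtrl libraries. Of the smooth muscle markers 3 of 5 tested fell in CAL-29 cells (LMOD1, SMTN and MYOCD), and of 3 tested in 5637 cells SYNM fell and SMTN rose. LMOD1 passed the filter in CAL-29 cells only through siCtrl libraries, so that its direction was fixed. Fibroblast markers went from between 114 and 131 to between 51.1 and 52.5 CPM in CAL-29 cells and from between 61.1 and 67.8 to between 29.1 and 33.5 CPM in 5637 cells. In CAL-29 cells PDGFRA, PDGFRB, DCN, LUM and THY1 were each under 1 CPM in all libraries and FAP made up nearly the whole sum. FAP fell in both lines and THY1 in 5637 cells. Urothelial and epithelial markers were also lower with siKMT9α, from between 12903 and 13616 to between 6291 and 6457 CPM in CAL-29 cells and from between 8977 and 9383 to between 6208 and 6429 CPM in 5637 cells. Of these, 7 of 9 fell in each line, among them KRT8 (log2 fold changes −1.45 ± 0.05 and −0.61 ± 0.03) and KRT5 (−1.25 ± 0.06 and −0.28 ± 0.03, the latter short of the threshold in the joint fit). TP63 rose in 5637 cells (0.36 ± 0.03), and KRT7 in CAL-29 cells (0.28 ± 0.06) did not pass except with no filter or the replicate block. Beside these marker calls, 15.0% of all genes fell and 15.0% rose in CAL-29 cells, and 17.6% fell and 18.0% rose in 5637 cells. The part of these markers in the members' values was not tested.

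The genes whose level followed that of TAGLN most closely over the 12 libraries are given as a description, since these libraries share 2 lines and 4 groups. Among 15385 genes outside the members, Pearson's r of log2 levels was highest for MORF4L2 (0.998), IMPAD1 (0.997), SCARB2 (0.996), TMED2 (0.996) and COPG1 (0.996). After the mean of each line was subtracted, CHURC1 (0.998), BBS2, SARAF, TMED2 and MAP3K1 (0.997 each) came first. Of the members, MYL9 (0.992) and TPM1 (0.985) were then the closest to TAGLN, CNN3 followed at 0.927, and CNN2 alone was negative (−0.584).

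To place the members beside the sequence of the siRNAs, their 3′ UTRs were searched for the heptamer complementary to bases 2 to 8 of each guide strand against KMT9α. ACATTCA, for siKMT9α#1, was in the longest annotated 3′ UTR of 2 of the 10 members, CNN2 and TPM1, and in that of 15.4% of the 12395 genes tested in both lines. CACATTC, for siKMT9α#2, was in 4 of the 10 (TAGLN, CNN2, TPM1 and MYL9) and in 13.8% of the genes. The study's results name siKMT9α#1, not siKMT9α#2, for the RNAseq, while the labels give no number. In the shortest annotated 3′ UTR CACATTC was found only in CNN2 and TPM1, beside 5.51% of the genes. ACATTCA was found there only in CNN2, beside 5.99% of the genes. Whether such heptamers bear on the members' levels was not tested. TPM1 and CNN2 hold both heptamers overlapping at 1 place of the longest 3′ UTR. These sites are shown as the transcript reads, with the first heptamer in capitals.
TPM1: tgctactgcacACATTCAtttatatttca
CNN2: tccctgctggcACATTCAggctgtgctgg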

How the data were processed

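RNAseq libraries of CAL-29 and 5637 cells were grouped by cell line and siRNA from the sample labels, with 3 libraries per group. The tables' columns call the siRNA si270. That it is siKMT9α#1 rests on the study's results section, as the labels name no number. STAR alignment to hg19 and counting with Homer (analyzeRepeats, default settings) were done by the authors. The strand setting and the treatment of reads with several positions are not given in the sources used here. The authors deposited estimated counts per RefSeq transcript without normalization, for 37400 transcripts of 23064 symbols, 37.3% of them not whole. The tables also hold the authors' own p-values and log2 fold changes, which were not used.

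The row with the most counts was kept for each symbol and rounded to whole counts. In edgeR 4.0.16 (R 4.3.3) libraries were TMM-scaled, low genes were removed with filterByExpr, and the quasi-likelihood test was run per line, and over 4 groups for the control lines and the interaction. DEGs had an unadjusted p below 1e-06. The SE is the log2 fold change divided by the square root of F. Pearson correlations used log2(CPM + 0.5). Gene positions, transcript lengths and 3′ UTRs came from GENCODE on GRCh37, and promoters from RefSeq on GRCh38.p14, so that their coordinates are of another build than the gene positions. Ratios on few counts carry exact 95% intervals. The tests were checked on simulated counts.

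The members and lists were chosen with earlier results of these data known. A further gene list is not reported here. Named genes were all members, N6AMT1, SRF, MRTFA, MRTFB, TPM3, TPM4, ACTB, ACTG1, the 3 genes of each other list with the highest mean level that were tested in both lines, and the 5 genes nearest to TAGLN by each measure. Alternatives were total-count and upper quartile scaling, DESeq2 1.42.0, no filter, at least 10 counts in every library, an adjusted p below 0.05, the replicate number as a block, each member's second transcript row, a joint fit, the siCtrl libraries alone and each library left out in turn.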

Additional observations from a re-analysis of the deposited data

Results flagged for a closer look

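Of the genes of the lists, only those named by the fixed rule are given here. They are the ones whose response to siKMT9α differed between the lines past an unadjusted p of 1e-06 in edgeR's interaction test. The value is the log2 fold change in CAL-29 cells less that in 5637 cells. Other genes of the lists passed as well, in both directions over the lists together. Of the 19 further SRF targets 14 passed in all, each with the lower log2 fold change in CAL-29 cells. Of all genes 15.7% passed. The difference was −0.46 for SRF, −0.51 for MRTFA, −0.94 for the filament crosslinker FLNA, −0.63 for the myosin MYH9 and −1.03 for the actinin ACTN1. It was −1.60 for SMTN, the smooth muscle protein smoothelin, which fell in CAL-29 cells (42.9 ± 2.49 to 24.9 ± 0.92 CPM) and rose in 5637 cells (32.3 ± 0.293 to 57.4 ± 2.06 CPM). Among the keratins it was −0.82 for KRT8 and −0.95 for KRT5, and 1.26 for KRT7, which fell in 5637 cells from 3545 ± 91.7 to 1824 ± 95.4 CPM and was at 77.4 ± 5.68 and 94.2 ± 3.39 CPM in CAL-29 cells.

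Of the members, CNN2 was lower in all 3 siKMT9α libraries than in all siCtrl libraries of CAL-29 cells (log2 fold change −0.17) and higher in all 3 in 5637 cells (0.48). The difference was not tested, because the choice of members used both values.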

How the results depend on the processing

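Members kept their direction under the alternatives with the exceptions named here. With each member's second transcript row, ACTA2 in CAL-29 cells was at −0.031. The difference between the lines, near 0, changed sign for CNN3 and TPM1. For CNN3 it was 0.096 with total-count scaling. With 1 library left out it ran from −0.060 to 0.022, positive without CAL-29 siCtrl replicate 3 or 5637 siKMT9α replicate 3. For TPM1 it ran from −0.0042 to 0.078 with 1 library left out, negative without CAL-29 siCtrl replicate 1. For ACTG2, with 0 counts in the 5637 siKMT9α libraries, DESeq2 gave −0.35, and no sign is read from the difference. Outside the members, with 1 library left out, the control ratio of MRTFB ran from −0.096 (without CAL-29 siCtrl replicate 1) to 0.12 and the difference of MYH11 from −0.060 (without CAL-29 siKMT9α replicate 3) to 0.13. The cause was not tested.

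At an adjusted p below 0.05 the DEGs rose from 4402 to 10194 in CAL-29 cells, from 5104 to 10138 in 5637 cells and from 2421 to 7764 for the difference between the lines. With every transcript row tested they were 7863, 9248 and, between the control lines, 16322 in place of 9204, since more rows were tested. Each library left out in turn gave 3119 to 5469 DEGs for CAL-29 and 4288 to 4974 for 5637, with 7 to 8 and 6 members called. CNN3 was the additional one, called without CAL-29 siCtrl replicate 1. Deviations from the group means correlated between −0.0134 and 0.0819 for libraries of the same number. These low values show no pairing by number but cannot exclude it, as libraries of different numbers were not compared. With the replicate block there were 6327 (CAL-29) and 5378 (5637) DEGs, and 7 members were called in each line, with CNN3 gained in 5637 cells. Low counts limit CNN1 and ACTG2 in 5637 cells, and ACTG2 with siKMT9α in CAL-29 cells.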

Other observations

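Some genes of the lists that the rule for named genes did not cover are given here, picked after their values were seen. ACTA1, the actin of skeletal muscle, went from 29.1 to 0.323 CPM in CAL-29 cells (log2 fold change −6.41 ± 0.21) and was under 1 CPM in all 5637 libraries. LMOD1, a leiomodin that nucleates actin filaments in smooth muscle, went from 7.42 to 0.0948 CPM in CAL-29 cells (−6.13 ± 0.31) and was under 1 CPM in all 5637 libraries. With siKMT9α both rest on few counts in CAL-29 cells, with SDs of 0.179 CPM for ACTA1 and 0.0845 CPM for LMOD1. Both passed the filter only through the siCtrl libraries, so that their direction was fixed and the size of the fall is uncertain. Reads that the actin genes may share also make ACTA1 uncertain, as for ACTA2 and ACTG2. MYOCD, the muscle cofactor of SRF, went from 7.45 to 2.85 CPM in CAL-29 cells (−1.39 ± 0.15). These transcripts were thus found in CAL-29 cells together with CNN1 and ACTG2, and at or near 0 in 5637 cells.

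CCN2, a secreted matrix-associated protein and a known target of both SRF and YAP, went from 94.4 to 6.75 CPM in CAL-29 cells (−3.80 ± 0.08) and from 130 to 39.6 CPM in 5637 cells (−1.71 ± 0.08). VCL, the vinculin of adhesion sites, went from 927 to 402 CPM and from 279 to 195 CPM (−1.21 ± 0.05 and −0.52 ± 0.03). Both are among the SRF targets that fell in both lines.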
